A study of Homo sapiens with 6 samples.

Results

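ICAM1 and 9 other cell adhesion receptors were followed in wild-type cells of PANC-1, a human cell line established from a pancreatic ductal adenocarcinoma. They were taken by name from a list of cell adhesion receptors (ICAM1, ICAM3, VCAM1, L1CAM, ALCAM, MCAM, BCAM, CADM1, CD44 and CD58), and all 10 were found among the 58735 gene rows of the count table. Polyadenylated RNA was sequenced from 6 libraries. In 3 of them the cells had received conditioned medium (CM) from PANC-1 cells carrying an empty vector and grown together with macrophages (CM-Vector), and in the other 3 the medium came from PANC-1 cells overexpressing MLKL grown with macrophages (CM-MLKL). MLKL is the protein that ruptures the plasma membrane in necroptosis. The cells sequenced were wild type in both groups, and in the study's methods the macrophages were derived from the THP-1 monocytic line and grown 1 to 1 with the tumour cells. The series description gives 72 h, which the study's methods state for the co-culture. Because both media came from co-cultures, the comparison asks what MLKL overexpression in the donor tumour cells added, and no library of cells without conditioned medium was analysed here.

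Cell adhesion receptors of the immunoglobulin superfamily carry stacked immunoglobulin domains outside the cell, a single membrane span or lipid anchor, and usually a short tail that reaches the actin cytoskeleton through linker proteins. Some, such as ICAM1 and VCAM1, are ligands for integrins of leukocytes, and their genes are classic targets of inflammatory cytokines that act through NF-kB. Others, such as L1CAM, ALCAM and CADM1, bind their own kind on neighbouring cells. CD44 does not belong to the superfamily, since its outer part is a hyaluronan-binding link domain, and the name of the set therefore describes 9 of its 10 genes.

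ICAM1 rose 4.35-fold with CM-MLKL and was the member of the set to pass the test. MCAM was 2.23-fold higher on average with no overlap between the groups, but did not pass. CD44 was high in both groups, L1CAM was intermediate, and BCAM, ALCAM and CD58 were low and spread widely between replicates. CADM1 was close to the lower limit of the test, and VCAM1 and ICAM3 gave a handful of reads or none.

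Levels are given as CPM, which are read counts set relative to the library total after scaling by trimmed mean of M values (TMM). Total counts ranged from 15838403 to 17885429 per library. CM-Vector replicate 1 stood apart: the first principal component of log2 CPM, with 48.6% of the variance, separated it from the other 5 libraries, and the second, with 23.4%, separated the groups. Where leaving out this library changed a call, or a member's direction or mean by a wide margin, the value without it is given. Such values, given for some other genes too, are an alternative chosen after the data had been seen. Among genes named below, NECTIN2, ACTN4, HNRNPM, TNFRSF1A and TNFAIP3 also changed sign without it, with no call. Keratins KRT7, KRT8, KRT18 and KRT19, markers of the ductal tumour line, summed to 4695 to 5520 CPM with CM-Vector and 2851 to 3945 CPM with CM-MLKL, and none of the 4 passed the test. Of 12 macrophage markers 4 had enough counts to test and none passed. Their sum was 20.7 to 26.4 CPM with CM-Vector and 24.1 to 29.5 CPM with CM-MLKL. The 4 had a median log2 fold change of -0.79, with 0.98 for LAPTM5, -1.38 for ITGAM, -0.88 for CD14 and -0.71 for ITGB2, and LAPTM5 passed without CM-Vector replicate 1 (log2 fold change 1.13, edgeR adjusted p = 0.0401). PTPRC, the pan-leukocyte marker CD45, had 0 counts in all 6 libraries. The part of the keratin and macrophage marker differences in the results below was not tested.

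The promoters of ICAM1, VCAM1 and MCAM are shown because ICAM1 and VCAM1 are the textbook pair of cytokine-induced adhesion genes and differed widely in level here, and MCAM was the other member whose groups lay farthest apart upward. Sequences are the 250 bases before each gene start in RefSeq on GRCh38.p14, 5′ to 3′ on the gene's strand, and positions are counted from the RefSeq start. That start lies 285 bases downstream of the outermost GENCODE start for ICAM1 and 4391 bases downstream for MCAM, so these windows lie inside the gene spans given below, and it is the same base for VCAM1. Of the members, 9 of the 10 members matched that table (CADM1 did not). Capitals mark matches to GGANNTTCC, GGGNNTTCC or GGGNNTCCC (kB-like), TTCNNNGAA (GAS-like) or TGANTCA (AP-1-like), searched on both strands.
ICAM1 (chr19:10270870-10271119, plus strand): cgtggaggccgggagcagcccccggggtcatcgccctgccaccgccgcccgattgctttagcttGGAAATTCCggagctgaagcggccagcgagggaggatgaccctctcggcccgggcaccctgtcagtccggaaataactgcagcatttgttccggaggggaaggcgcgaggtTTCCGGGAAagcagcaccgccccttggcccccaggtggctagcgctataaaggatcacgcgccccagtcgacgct
VCAM1 (chr1:100719492-100719741, plus strand): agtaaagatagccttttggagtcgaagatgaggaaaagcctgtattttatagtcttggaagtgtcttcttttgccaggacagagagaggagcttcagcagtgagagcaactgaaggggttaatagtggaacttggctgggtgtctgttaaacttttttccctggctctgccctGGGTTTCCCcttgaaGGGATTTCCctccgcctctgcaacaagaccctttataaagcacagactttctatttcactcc
MCAM (chr11:119317131-119317380, minus strand): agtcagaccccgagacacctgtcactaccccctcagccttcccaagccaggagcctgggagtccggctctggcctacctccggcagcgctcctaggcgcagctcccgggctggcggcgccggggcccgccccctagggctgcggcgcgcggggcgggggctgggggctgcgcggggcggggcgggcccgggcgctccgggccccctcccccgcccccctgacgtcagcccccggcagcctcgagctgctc

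The ICAM1 window holds 1 kB-like match 186 bases before the start, read on either strand, and 1 GAS-like match 75 bases before it. VCAM1 holds a pair of kB-like matches, 77 and 62 bases before the start. Over the 9 members with a promoter in the table, kB-like matches were found in 3 (ICAM1, VCAM1 and 1 of the starts of ICAM3, at 56 bases), a GAS-like match in 1 and an AP-1-like match in 0. MCAM holds no match to any of the 3 kinds, and 79.6% of its window is G or C, against 66% for ICAM1 and 46% for VCAM1. Over 35116 promoters of the same length, 15.2% hold a kB-like match, 6.57% a GAS-like match and 6.57% an AP-1-like match. The members are counted by gene, with a match at any of its starts, and this background by promoter, so the units differ. TATAAA, which 10.7% of promoters hold, lies 30 bases before the ICAM1 start and 29 before the VCAM1 start. These are matches of letters, chosen with these promoters in view, and no binding was measured here.

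ICAM1 encodes the intercellular ligand of the leukocyte integrins LFA-1 and Mac-1. It lies on chromosome 19 from 10270835 to 10286615 on the plus strand (GRCh38, GENCODE 29, protein-coding), and reads were counted over the gene. Its level was 496.5, 546 and 657 CPM in CM-Vector replicates 1, 2 and 3, and 2116, 2703 and 2574 CPM in CM-MLKL replicates 1, 2 and 3. The lowest CM-MLKL library was above the highest CM-Vector library, and CM-Vector replicate 1 lay with the other replicates of its group. The mean rose from 567 ± 82.0 to 2464 ± 308 CPM (SD, n = 3), a log2 fold change of 2.12 (SE 0.249, 95% interval 1.57 to 2.67, edgeR adjusted p = 0.00585). Here and below, an edgeR adjusted p comes from the quasi-likelihood test of edgeR, adjusted over all genes tested by the method of Benjamini and Hochberg. On the linear scale the interval ran from 2.97-fold to 6.38-fold. In bulk RNA, a different share of cells with the transcript and a different amount per cell cannot be told apart. Depth did not limit this value, since ICAM1 had 9040 to 10679 counts with CM-Vector and 36817 to 46984 with CM-MLKL. Genes on the opposite strand that overlap ICAM1, AC011511.2 and AC011511.5, had at most 9 counts in any library. The call held under all 14 alternative settings, with log2 fold changes from 2.05 to 2.24. Without CM-Vector replicate 1 the log2 fold change was 2.06 (edgeR adjusted p = 0.000937).

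Of the 8 members with enough counts to test, 1 was higher and 0 lower at an adjusted p under 0.05. Over all 14046 genes tested the test called 57 higher, or 0.406%, and 15 lower, or 0.107%. At an unadjusted p under 0.05, with no allowance for the number of tests, edgeR called 874 of these 14046 genes. In 3 members (ICAM1, MCAM and CD44) every CM-MLKL library was above every CM-Vector library, which held for 6.43% of all genes tested. In 0 members every CM-MLKL library was below, against 5.5% of all genes. With all 6 libraries the 8 log2 fold changes had 4 positive and 4 negative values. Their median was 0.0033, beside -0.043 over all genes tested, so the set did not move one way. The even split was not stable, since L1CAM lay near 0 and turned negative in 7 of 14 alternatives. The split also depended on CM-Vector replicate 1. Without it ALCAM and CD58 turned positive, BCAM and CADM1 stayed negative, and the median was 0.21, beside 0.051 over all genes.

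**Figure D1:**
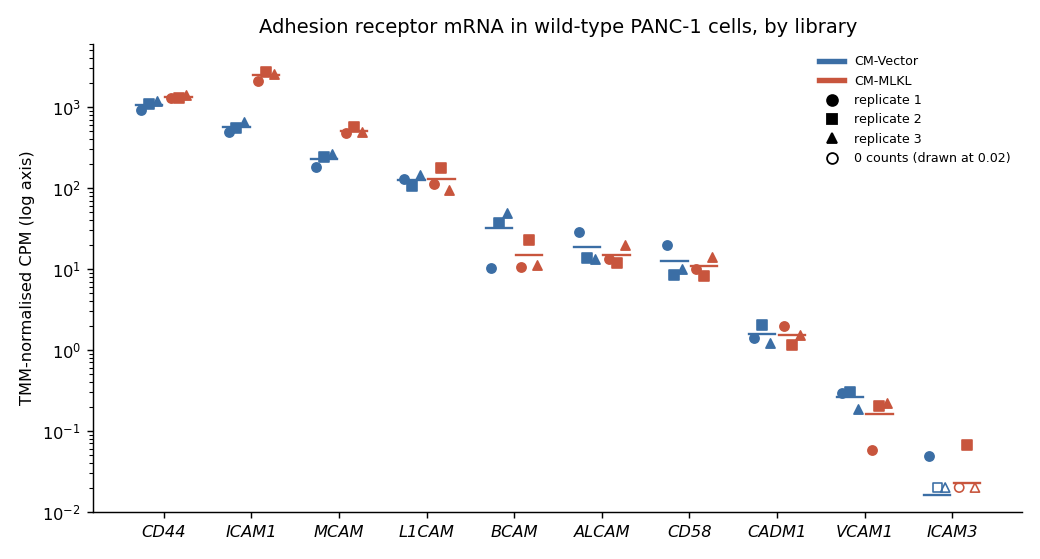
TMM-normalised CPM (log axis) of the 10 receptors in each of the 6 libraries, with horizontal bars at group means and open symbols for libraries with 0 counts, drawn at a fixed low position. ICAM1 lies between 496.5 and 657 CPM with CM-Vector and between 2116 and 2703 CPM with CM-MLKL, the widest gap in the plot between groups that do not overlap.

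ICAM3, a leukocyte ligand of LFA-1, and VCAM1, the ligand of the integrin VLA-4, complete the integrin ligands of the set. VCAM1 had 6, 5 and 3 counts in CM-Vector replicates 1, 2 and 3 and 1, 3 and 4 counts in CM-MLKL replicates 1, 2 and 3, or 14 against 8 in sum. ICAM3 had 1 count in CM-Vector replicate 1, 1 count in CM-MLKL replicate 2 and 0 counts in the other 4 libraries. Both were below the filter of the test, and a difference was not detectable at this depth, where 3 counts, the limit that a count of 0 allows, stand for 0.147 to 0.202 CPM. ICAM1 and VCAM1 were far apart in these cells, at 153 ± 22.1 against 0.0430 ± 0.0109 CPM per kb of exon with CM-Vector, and 665 ± 83.2 against 0.0264 ± 0.0147 CPM per kb with CM-MLKL.

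ICAM1 heads a cluster of ICAM genes. ICAM4, the Landsteiner-Wiener blood group antigen, starts 16.1 kb from the ICAM1 start on the same strand and had 0 counts in all 6 libraries. The whole of ICAM4 lies within the antisense gene AC011511.5, and the kit did not mark strand, so how reads from that stretch were assigned is not known. ICAM5, known from neurons of the forebrain, starts 19.1 kb away. It had 84, 491 and 562 counts in CM-Vector replicates 1, 2 and 3 and 353, 547 and 415 counts in CM-MLKL replicates 1, 2 and 3. Its CM-Vector replicate 1 was the low library, and its groups overlapped, with 22.8 ± 16.4 and 26.6 ± 8.95 CPM (log2 fold change 0.23, 95% interval -1.09 to 1.54, edgeR adjusted p = 0.999). Without that library the log2 fold change was -0.24. ICAM3 lies 62.9 kb away on the opposite strand.

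**Figure D2:**
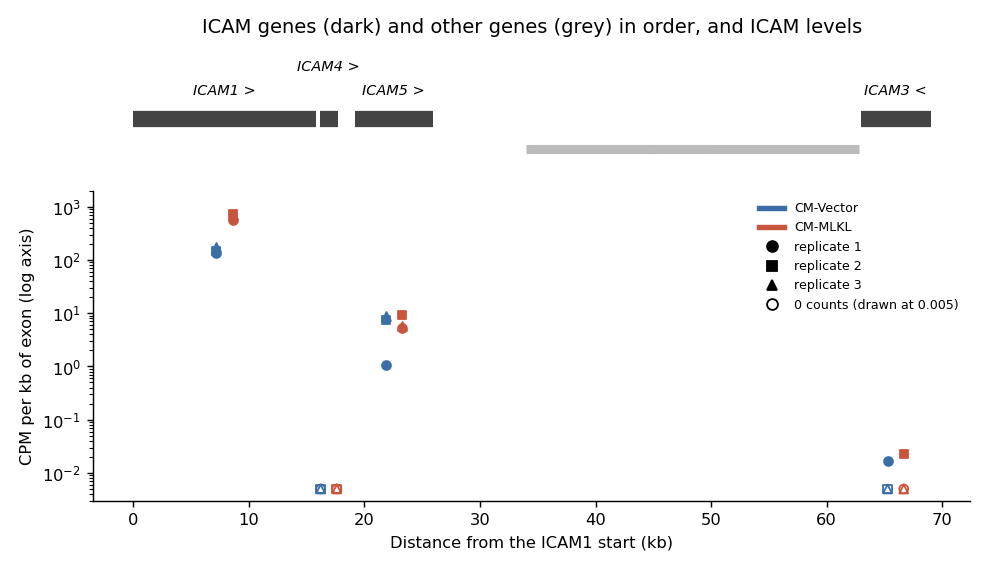
Genes of the ICAM cluster by distance from the ICAM1 start in kb (upper bars, with arrows for strand) and CPM per kb of exon in each library (lower panel, log axis, points at the middle of each ICAM gene). ICAM1 stands above its relatives in every library, with ICAM4 at 0 counts and ICAM5 at 5.83 and 6.82 CPM per kb on average in the CM-Vector and CM-MLKL groups.

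MCAM, also known as CD146, binds laminin-411 and is a marker of endothelium and melanoma. It had 184, 238 and 261 CPM in CM-Vector replicates 1, 2 and 3 and 472, 561 and 494 CPM in CM-MLKL replicates 1, 2 and 3, and the groups did not overlap. Means were 228 ± 39.8 and 509 ± 46.1 CPM (SD, n = 3), with a log2 fold change of 1.16 (SE 0.239, 95% interval 0.63 to 1.69). The adjusted p was 0.0824 (edgeR quasi-likelihood test, Benjamini-Hochberg), against an unadjusted p of 0.000593. MCAM passed the threshold in 5 of 14 alternatives, among them the DESeq2 test (adjusted p = 0.00316) and the fit without CM-Vector replicate 1 (log2 fold change 1.06, edgeR adjusted p = 0.0266), with adjusted p from 0.00316 to 0.413 over all of them. MCAM lies on chromosome 11 from 119308529 to 119321521 on the minus strand. It shares 5398 bases with CBL on the other strand, which had 774 to 1662 counts a library against 3755 to 9021 for MCAM, and reads from the shared stretch cannot be assigned to either.

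BCAM, the Lutheran glycoprotein and a receptor for laminin alpha-5, lies on chromosome 19 from 44809059 to 44821421. It had 10.3, 36.7 and 48.5 CPM with CM-Vector and 10.6, 22.9 and 11.3 CPM with CM-MLKL. CM-Vector replicate 1 lay below all CM-MLKL libraries while replicates 2 and 3 lay above them, so the groups overlapped. Means were 31.9 ± 19.6 and 14.9 ± 6.93 CPM, with a log2 fold change of -1.09 (SE 0.514, 95% interval -2.23 to 0.04, edgeR adjusted p = 0.839). Without CM-Vector replicate 1 the log2 fold change was -1.49 (95% interval -2.24 to -0.73, edgeR adjusted p = 0.0548). BCAM passed in none of 14 alternatives.

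L1CAM, a neural adhesion molecule that many carcinomas express, lies on chromosome X from 153861514 to 153886174. It had 128, 105 and 144 CPM with CM-Vector and 111, 178 and 94.5 CPM with CM-MLKL. CM-MLKL libraries were both the highest and the lowest of the 6. Its means were 126 ± 19.8 and 128 ± 44.5 CPM, with a log2 fold change of 0.024 and a 95% interval from -0.61 to 0.65 (edgeR adjusted p = 0.999). That interval holds differences of up to about 1.57-fold in the upward direction, and the sign turned in 7 of 14 alternatives.

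ALCAM, the ligand of CD6 on T cells, lies on chromosome 3 from 105366909 to 105576900, and CD58, the ligand of CD2, on chromosome 1 from 116514535 to 116571039. ALCAM was 28.7, 13.5 and 13.3 CPM with CM-Vector and 13.3, 11.9 and 19.7 CPM with CM-MLKL. CD58 was 19.6, 8.46 and 10.1 CPM with CM-Vector and 10.1, 8.15 and 14.2 CPM with CM-MLKL. In both, CM-Vector replicate 1 was the highest of the 6 libraries and the groups overlapped. The log2 fold change of ALCAM was -0.31 (SE 0.369, 95% interval -1.12 to 0.51) and that of CD58 was -0.23 (SE 0.381, 95% interval -1.08 to 0.61), both at an edgeR adjusted p of 0.999. Without CM-Vector replicate 1 they turned to 0.19 for ALCAM (edgeR adjusted p = 0.799) and 0.25 for CD58 (edgeR adjusted p = 0.736), so neither had a direction that the libraries shared.

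CADM1, a homophilic adhesion molecule of epithelia that is lost in several tumour types, lies on chromosome 11 from 115169218 to 115504957. It had 29, 34 and 20 counts in CM-Vector replicates 1, 2 and 3 and 34, 17 and 28 counts in CM-MLKL replicates 1, 2 and 3. Its groups overlapped at 1.57 ± 0.432 and 1.54 ± 0.404 CPM (log2 fold change -0.018, 95% interval -0.98 to 0.95, edgeR adjusted p = 0.999). At this depth a change of about 1.93-fold upward would lie within the interval.

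CD44, the hyaluronan receptor, was the member with the most counts under CM-Vector, and lies on chromosome 11 from 35138870 to 35232402. Its level was 910, 1103 and 1201 CPM in CM-Vector replicates 1, 2 and 3 and 1288, 1274 and 1413 CPM in CM-MLKL replicates 1, 2 and 3. The groups did not overlap, though the gap between them was narrow. Means were 1071 ± 148 and 1325 ± 76.5 CPM, with a log2 fold change of 0.31 (SE 0.231, 95% interval -0.20 to 0.82, edgeR adjusted p = 0.999). Without CM-Vector replicate 1, the lowest of the 6, it was 0.23 (edgeR adjusted p = 0.615). The counts cover the whole gene and do not tell its splice forms apart.

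**Figure D3:**
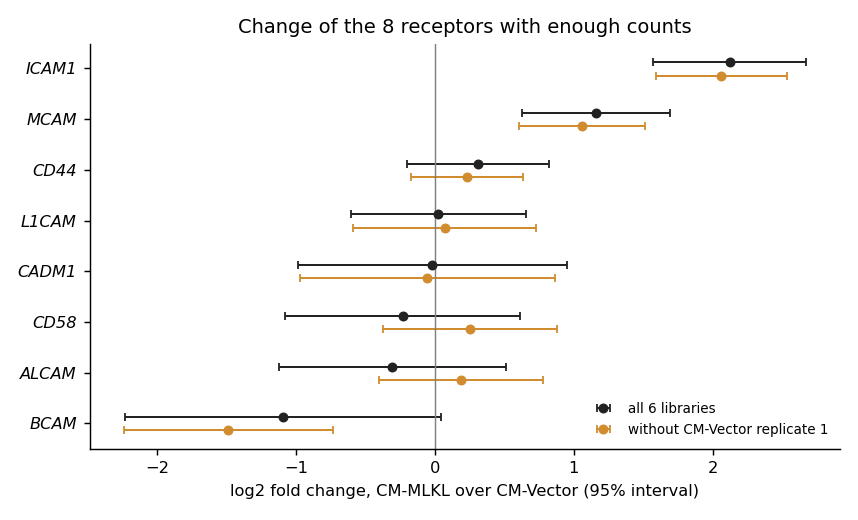
Log2 fold change of CM-MLKL over CM-Vector for the 8 receptors tested, with 95% intervals (edgeR), for all 6 libraries (black) and without CM-Vector replicate 1 (orange). ICAM1 and MCAM lie above 0 with their whole interval in both fits, and the values of ALCAM and CD58 change sign when the library is left out. The interval of BCAM reaches above 0 with all 6 libraries and lies wholly below 0 when that library is left out.

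To compare receptors with each other, CPM was divided by the summed exon length of each gene. With CM-Vector, the mean levels in CPM per kb were 153 for ICAM1, 107 for CD44, 30.7 for MCAM and 17.3 for L1CAM, and these 4 did not overlap with each other. CD58 (7.12 ± 3.36), BCAM (6.36 ± 3.91) and ALCAM (2.57 ± 1.23) followed, and BCAM overlapped with both of its neighbours in that order. With CM-MLKL the order was ICAM1 (665), CD44 (132), MCAM (68.6), L1CAM (17.6), CD58 (6.07), BCAM (2.98) and ALCAM (2.08), again with the upper 4 apart and the ranges of BCAM touching those of CD58 and ALCAM. CADM1 was at 0.142 and 0.140 CPM per kb in the respective groups. The order of CD58 and BCAM with CM-Vector rests on replicate 1, since over replicates 2 and 3 their means were 5.20 and 8.51 CPM per kb.

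Summed over the 10 members, the length-scaled level was 324 ± 42.9 CPM per kb with CM-Vector and 895 ± 94.2 with CM-MLKL, 2.76-fold higher. Without ICAM1 the sum of the other 9 was 171 ± 20.9 and 230 ± 11.01 CPM per kb, 1.34-fold higher. Of these, MCAM went from 30.7 to 68.6 and CD44 from 107 to 132 CPM per kb, and neither passed the test. L1CAM was at 17.3 and 17.6 CPM per kb, and BCAM, CD58, ALCAM and CADM1 had lower means with CM-MLKL over all 6 libraries. ICAM1 made up 47.1 ± 0.816% of the sum with CM-Vector and 74.2 ± 1.57% with CM-MLKL (SD, n = 3), while CD44 made up 33.0 ± 1.41% and 14.9 ± 1.61%. The share of CD44 was lower with CM-MLKL although its level was not, because ICAM1 is part of the sum. The ratio of ICAM1 to CD44 was 1.47, 1.34 and 1.48 in CM-Vector replicates 1, 2 and 3 and 4.43, 5.73 and 4.92 in CM-MLKL replicates 1, 2 and 3. Such a ratio within a library does not depend on library scaling, and it was 3.52-fold higher on average with CM-MLKL. For ICAM1 to MCAM the means were 5.01 ± 0.407 and 9.68 ± 0.731, a 1.93-fold difference. These shares and ratios are descriptions and were given no test.

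**Figure D4:**
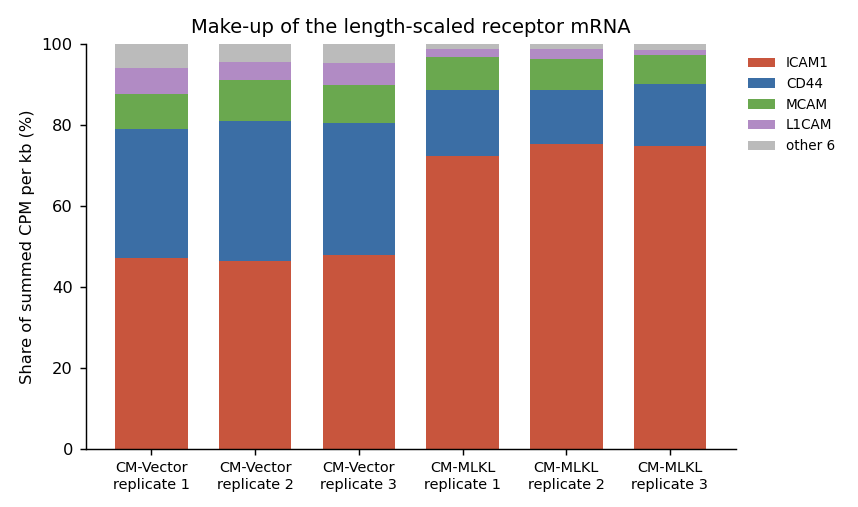
Share (%) of each receptor in the summed CPM per kb of the 10 receptors, for each library, with the 6 lowest drawn together. ICAM1 takes 46.3% to 47.9% in the CM-Vector libraries and 72.4% to 75.4% in the CM-MLKL libraries.

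Across the 6 libraries, genes whose log2 CPM followed ICAM1 closely, of 10285 genes averaging at least 5 CPM in the higher group, were MFAP2 (Pearson's r 0.997), GLIPR2 (0.997), ZNF185 (0.996) and MSN (0.993). MFAP2 is a microfibril protein of the matrix, and MSN is moesin, which links membrane receptors such as ICAM1 to actin. MFAP2 rose from 4.85 ± 0.963 to 30.7 ± 6.43 CPM (log2 fold change 2.67, edgeR adjusted p = 0.00567). MSN had 460 ± 63.6 and 1040 ± 101 CPM and did not pass the test (log2 fold change 1.18, edgeR adjusted p = 0.0730), though it did without CM-Vector replicate 1 (1.13, edgeR adjusted p = 0.0211). Among the members, r with ICAM1 was 0.985 for MCAM, 0.83 for CD44, 0.038 for L1CAM, -0.25 for CD58, -0.33 for ALCAM and -0.40 for BCAM. The 6 points form 2 groups of 3 libraries, so these values mainly restate the difference between groups and are given as a description.

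Of 38 other immunoglobulin-type adhesion genes, 23 were tested, 0 were higher and 0 lower by the edgeR test, and their median log2 fold change was 0.19 beside -0.043 over all genes. BSG (basigin), the most abundant of them, had 1108 ± 404 and 989 ± 289 CPM (log2 fold change -0.16, and -0.41 without CM-Vector replicate 1, edgeR adjusted p = 0.485), and NECTIN2 had 214 ± 83.1 and 217 ± 77.5 CPM. ESAM, an adhesion molecule of endothelial junctions, had 109, 82.6 and 94.3 CPM with CM-Vector and 177, 279 and 170 CPM with CM-MLKL (log2 fold change 1.13, edgeR adjusted p = 0.148). PVR, the poliovirus receptor and a ligand of the lymphocyte receptors CD226 and TIGIT, had 96.9, 56.9 and 59.4 CPM against 147, 195 and 147 CPM (log2 fold change 1.20, edgeR adjusted p = 0.137). CEACAM1, an adhesion molecule of epithelia, had 24.4, 16.9 and 16.5 CPM against 6.90, 6.74 and 7.61 CPM (log2 fold change -1.44, edgeR adjusted p = 0.0783), and its relative CEACAM6 had 51, 19 and 25 counts against 4, 6 and 7 (log2 fold change -2.34, edgeR adjusted p = 0.125). Both were named after their values were seen. In these 4 genes the groups did not overlap, but none passed the threshold. Groups were also apart, upward and without a call, in F11R, JAM2, JAM3, NECTIN1, NFASC, THY1 and MPZL1. These too were named after their values were seen. Over all genes tested, every CM-MLKL library was above every CM-Vector library in 6.43% and below in 5.5%. Without CM-Vector replicate 1, 2 of the 23 passed upward (ESAM, edgeR adjusted p = 0.0419, and PVR, 0.00978) and 1 downward (CEACAM1, 0.0223), in a fit that called 1.44% of all genes higher and 0.755% lower. ESAM is also one of 8 endothelial markers, whose sum was 84.1 to 110 CPM with CM-Vector and 172 to 280 CPM with CM-MLKL. Nearly all of that sum was ESAM itself, at 82.6 to 109 CPM and 170 to 279 CPM. CDH5, the cadherin that defines endothelium, had 0 counts in all libraries. Of 7 fibroblast markers 1 was tested and did not pass, their sum was 4.66 to 10.3 CPM and 10.9 to 11.8 CPM, and DCN had 0 counts.

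Chains of the leukocyte integrins that bind these receptors were at low levels or at 0. ITGAL, the alpha chain of LFA-1, had 1 count in each group, ITGA4, the alpha chain of VLA-4, had 0 counts in all libraries, and ITGB2, the beta chain of LFA-1 and Mac-1, had 8.08 ± 0.569 and 4.95 ± 0.741 CPM. ITGAM, the alpha chain of Mac-1, had 75, 17 and 21 counts in CM-Vector replicates 1, 2 and 3 and 10, 12 and 17 in CM-MLKL replicates 1, 2 and 3 (log2 fold change -1.38, edgeR adjusted p = 0.704, and -0.56 without CM-Vector replicate 1), and ITGAX, which also pairs with ITGB2, had 1.33 ± 0.710 and 1.71 ± 0.423 CPM. Of 12 integrin genes listed, 7 were tested, 2 were higher and 0 lower, beside 0.406% and 0.107% of all genes. The list was chosen with earlier results of these data known. ITGA5, which pairs with ITGB1 as the fibronectin receptor and also binds L1CAM, had 688, 584 and 679 CPM with CM-Vector and 2553, 4298 and 2303 CPM with CM-MLKL (log2 fold change 2.23, SE 0.298, edgeR adjusted p = 0.00825). ITGB3, the beta chain of the vitronectin receptor, had 5.10, 3.38 and 3.94 CPM against 22.7, 21.3 and 20.6 CPM (log2 fold change 2.38, SE 0.298, edgeR adjusted p = 0.00661). Both were separated between groups in every library, and ITGA5 passed in all 14 alternatives, while ITGB3 passed in 13 and missed without CM-MLKL replicate 2 (edgeR adjusted p = 0.0589). Their partners ITGB1 (610 ± 105 and 752 ± 180 CPM) and ITGAV (130 ± 89.6 and 191 ± 9.14 CPM) did not pass. ITGAV had 233, 72.0 and 84.1 CPM with CM-Vector against 180, 198 and 194 CPM with CM-MLKL. Without CM-Vector replicate 1, the highest library, ITGAV passed (log2 fold change 1.32, edgeR adjusted p = 0.0119). That made 3 of 7 integrin genes higher, in a fit that called 1.44% of all genes higher.

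Among 8 enzymes and inhibitors of receptor shedding all were tested, 2 were higher and 0 lower, beside 0.406% and 0.107% of all genes. This list too was chosen with earlier results known. MMP9, a gelatinase that can cleave ICAM1 from the surface, had 2.79, 2.30 and 1.23 CPM with CM-Vector and 15.4, 23.6 and 12.3 CPM with CM-MLKL (log2 fold change 3.01, SE 0.414, edgeR adjusted p = 0.00879). MMP14, a membrane-bound protease that cleaves CD44, had 27.4, 49.99 and 54.4 CPM against 199, 310 and 213 CPM (log2 fold change 2.45, SE 0.323, edgeR adjusted p = 0.00811). Both missed the threshold without CM-MLKL replicate 2, at an edgeR adjusted p of 0.0994 for MMP9 and 0.0889 for MMP14, and passed in the other 13 alternatives. ADAM10, the protease that sheds CD44 and L1CAM, had 46.5 ± 14.7 and 48.5 ± 4.79 CPM, and TIMP1, an inhibitor of metalloproteinases, had 327 ± 52.7 and 427 ± 92.0 CPM.

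In the other lists 0 genes passed in either direction by the edgeR test. Without CM-Vector replicate 1, 2 linkers passed upward, MSN and ACTN1, which was named after its value was seen, and 0 genes passed in the rest of these lists. Tests were possible for 13 of 15 cytoskeletal linkers (median log2 fold change 0.038, with ACTN4 at 2119 ± 645 and 2184 ± 400 CPM), 9 of 16 other binding partners (-0.15, with LAMA5 at 476 ± 56.0 and 430 ± 198 CPM and LGALS3 at 223 ± 53.5 and 253 ± 30.9 CPM) and 5 of 10 genes of hyaluronan turnover and uptake (-0.070, with HYAL2 at 59.3 ± 16.3 and 56.2 ± 12.4 CPM and HYAL3 at 12.4 ± 4.51 and 17.0 ± 4.45 CPM). Of 6 splicing regulators of CD44, 5 were tested (-0.20, with HNRNPA1 at 437 ± 28.99 and 428 ± 82.9 CPM and HNRNPM at 102 ± 42.9 and 83.1 ± 8.60 CPM). Genes of the pathways that induce ICAM1 in other settings were also measured. Of that list, 10 transcription factors and 2 feedback inhibitors (NFKBIA and TNFAIP3), all 12 were tested (median log2 fold change 0.082), and NFKB2 had 280 ± 86.9 and 302 ± 116 CPM. NFKBIA, the NF-kB inhibitor that NF-kB itself induces, had 237, 256 and 240 CPM with CM-Vector and 308, 328 and 365 CPM with CM-MLKL. Its groups did not overlap, with a log2 fold change of 0.45 (95% interval -0.03 to 0.93, edgeR adjusted p = 0.870). Of 12 receptors for cytokines and microbial products 8 were tested (median -0.33), with IFNGR2 at 212 ± 29.4 and 240 ± 26.5 CPM and TNFRSF1A at 168 ± 52.7 and 176 ± 43.2 CPM. The medians depended on CM-Vector replicate 1. Without it they were 0.44 for the factors and inhibitors and -0.027 for these receptors, beside 0.051 over all genes tested. They were 0.41 for the hyaluronan genes, 0.26 for linkers, -0.13 for other partners and 0.00013 for the splicing regulators.

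**Figure D5:**
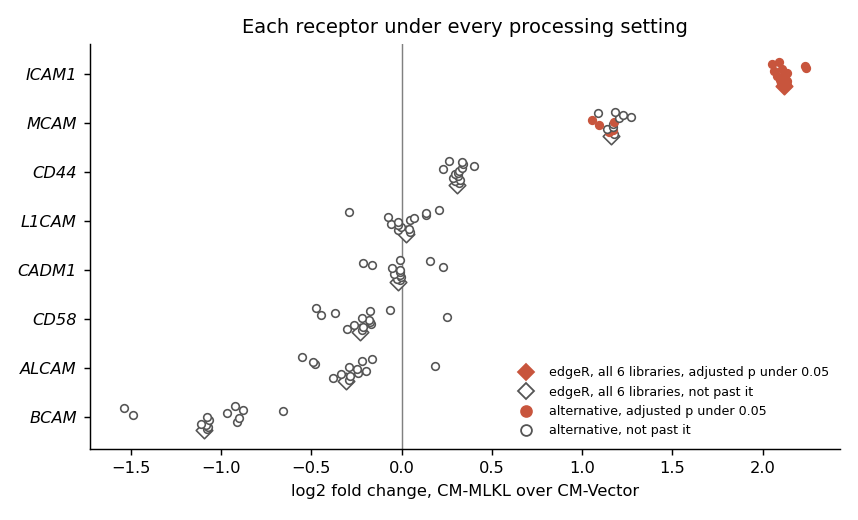
Log2 fold change of CM-MLKL over CM-Vector for each receptor under the 15 processing settings, with filled symbols where the adjusted p was under 0.05. ICAM1 stays between 2.05 and 2.24 and is filled throughout, MCAM is filled in 5 settings, and L1CAM lies on both sides of 0.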

How the data were processed

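Per the study's methods, RNA was extracted with Trizol, enriched on oligo(dT) beads and made into libraries with a NEBNext Ultra kit, which does not mark strand, and reads were filtered with fastp. The sources used here do not name an aligner, a genome build, a counter or its strand setting. The deposited values are raw counts of reads for each gene, not normalised. GENCODE 29 holds 58708 of the 58735 gene names, and coordinates and exon lengths were taken from it; the other 27 are dates made by a spreadsheet (0.155% of counts).

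Counts were filtered with filterByExpr of edgeR 4.0.16 in R 4.3.3 (minimum count 10, minimum total 15), scaled by TMM factors and compared with the edgeR quasi-likelihood test, two-sided, with group as the only term and Benjamini-Hochberg adjustment over all genes tested (threshold 0.05). This was tested on simulated data. The simulation set the same replicate variability for every gene and held no outlying library, so it does not cover a library like CM-Vector replicate 1. Levels are TMM-normalised CPM, as mean ± SD. SE is the log2 fold change over the root of F. Labels name 3 replicates a group, and the methods describe independent experiments. Intervals on counts of 0 cover counting error only.

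All 10 members are named. From each other list every gene past the threshold is named, plus up to 2 with the highest level (4 for adhesion genes), and the 5 genes most like ICAM1, of which 1 is not reported here. The members and lists were chosen with earlier results of these data known. Alternatives were DESeq2 size factors, library size only, DESeq2 1.42.0, limma 3.58.1 (voom), no filter, a minimum of 5 CPM in 3 libraries, leaving out single libraries, the replicate block, and, added after the data were seen, GC and length offsets and the list counts without CM-Vector replicate 1. Promoter sequences are from RefSeq on GRCh38.p14.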

Additional observations from a re-analysis of the deposited data

How the results depend on the processing

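ICAM1 kept its direction and its call under all 14 alternatives, with log2 fold changes of 2.05 to 2.24 when each library was left out in turn. The number of members higher was 2 (ICAM1 and MCAM) with library size only, without the low-count filter, with GC and length offsets and by DESeq2, and ranged from 1 to 2 over the fits that left out a library, with 2 without CM-Vector replicate 1. The number lower was 0 throughout. Over all genes, 149 were higher and 100 lower without the filter (26578 genes tested), 117 and 41 with GC and length offsets, and 140 and 67 by DESeq2. Leaving out a library gave 14 to 206 higher and 4 to 108 lower, with the lowest counts without CM-MLKL replicate 2 and the highest without CM-Vector replicate 1. With the replicate block, 112 were higher and 43 lower, ICAM1 had a log2 fold change of 2.12 and no call of a member changed. The labels do not say whether equal numbers pair the samples. Deviations of same-numbered libraries from their group means correlated at 0.17, 0.17 and -0.31. These values cannot decide it, since deviations within so small a group sum to 0. The log2 fold change of L1CAM turned to -0.022 with library size only, -0.0012 with the 5 CPM filter, -0.021 with the replicate block, -0.057 with GC and length offsets and -0.020 by limma-voom, and ranged from -0.29 to 0.21 when a library was left out. In the same fits that of ALCAM ranged from -0.55 to 0.19, that of CD58 from -0.47 to 0.25 and that of CADM1 from -0.21 to 0.23. CADM1 could not be fitted with the 5 CPM filter. The cause of these changes was not tested. Depth limits CADM1, VCAM1 and ICAM3.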
